A study of Bos taurus with 48 samples.

Results

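The nutrition experiment of this bovine muscle series set cattle on a diet for weight loss, called restricted below, against cattle on a diet for growth, and its earliest arrays carry the label time 0. All 8 animals were Belmont Red cattle, and the tissue was a biopsy of the longissimus dorsi, a back muscle that the study calls LTL. The comparison was defined by the labels alone: every array labelled diet time 0, which is 4 of the 48 arrays and 8 of their 96 channels. Each array carried 1 restricted and 1 growth animal in different dyes, so that restricted animals RL27, RL24, RL322 and RL671 met growth animals RG166, RG604, RG157 and RG208 in that order. No animal appeared more than once at time 0, and the restricted RNA was labelled with Cy3 on 2 arrays and with Cy5 on the other 2. Neither the labels nor the study's methods say whether a diet had begun when these biopsies were taken, or how animals were assigned to the diets, handled or fed beforehand.

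Immediate early genes are transcribed soon after a cell receives a signal, without the need for newly made protein, and many encode short-lived transcription factors such as FOS, EGR1 and ATF3. In skeletal muscle they are known to respond to contraction, stretch, injury and stress hormones. Heat shock proteins are chaperones that hold and refold damaged proteins, and the unfolded protein response is the related program of the endoplasmic reticulum. FDFT1, squalene synthase, catalyses the step that commits isoprenoids to cholesterol.

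The restricted group stood below the growth group in immediate early and chaperone genes at time 0, and above it in other genes that included FBXO32, PIK3IP1 and FDFT1. Lipid genes as a class did not separate the groups. The levels given for single animals at time 0 are log2 signals after normalization, with the gene's own dye effect taken off. A difference is the restricted mean minus the growth mean on that scale. Of 13460 genes tested with limma, 290 passed an adjusted p of 0.05, which is 2.15% of those tested. Of these, 137 were higher in the restricted group (1.02%) and 153 lower (1.14%). When each channel was centred on its median in place of loess, 46 were higher and 90 lower. All 290 had 4 restricted animals that did not overlap the 4 growth animals, as did 1828 genes overall (13.6%). The median difference over all genes was -0.00487. Each called gene named here was well above background in all 8 channels.

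The call depends on how the 2 channels of an array are modelled and on every array. The correlation of 0.124 between channels used here replaced limma's own estimate of 0.378 after counts had been seen, because that estimate came out too high on simulated data, and with limma's estimate 897 genes passed. With no array term 95 genes passed, all of them among the 290, and with array as a fixed block, which leaves few degrees of freedom, 0 passed in limma although 2154 had an unadjusted p under 0.05. Without array 1, 2, 3 or 4 the number of calls was 6, 1, 37 and 0. The time 0 arrays shared 1 slide and 1 scan, and 58.3% to 64.9% of spots were well above background in restricted channels against 58.7% to 68.0% in growth channels.

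The probes behind these values were 60-base oligonucleotides. The first 30 bases of 3 of them are shown, as the array files give them and all in lower case, because the largest called difference, the best known immediate early gene and one of the most even rises each rested on a single probe.
FOS: ccttgaggtcttttgacatgtggaaagtga
ATF3: tctctggctactatctgtttaaattctgac
PIK3IP1: tttttatatacctcattctgacacctgcga

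Of 41 immediate early genes listed, 38 were tested, and 10 fell in the restricted group relative to growth, 0 rose and 28 were not called. Their median difference was -1.08 and 37 of the 38 differences were negative. ATF3, a stress-induced transcription factor that belonged to the stress list as well, had the largest called difference of all genes. Its log2 signal was 10.45, 11.65, 10.46 and 9.32 in restricted animals RL27, RL24, RL322 and RL671. In growth animals RG166, RG604, RG157 and RG208 it was 13.54, 16.86, 15.55 and 16.54. The groups did not overlap, and the growth animal RG166 lay about as near to the restricted animals as to the other growth animals. The difference was -5.15 ± 0.72 (SE, n = 4 and 4, limma adjusted p = 0.0233), a signal 35.5 times lower in the restricted group.

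FOS, which pairs with JUN proteins in the AP-1 transcription factor, was 10.40, 12.23, 11.06 and 10.04 in the restricted animals in the same order. It was 13.27, 15.98, 15.33 and 15.19 in the growth animals. RL24 was the highest restricted animal and RG166 the lowest growth animal, with no overlap. FOS differed by -4.01 ± 0.60 (limma adjusted p = 0.0264), or 16.1 times. EGR1, a zinc finger transcription factor induced by growth signals, was 9.33, 11.04, 10.23 and 10.69 in restricted animals against 12.71, 13.66, 15.72 and 15.43 in growth animals. The growth animals spread over more of the scale than the restricted ones, and the difference was -4.06 ± 0.65 (limma adjusted p = 0.0304). The EGR1 call was lost with no array term (limma adjusted p = 0.0513) and with no dye term (0.0710). The FOS call was lost with no dye term (limma adjusted p = 0.0557).

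IER5, an immediate early gene linked to the heat shock factor, was 12.67, 13.26, 13.56 and 12.43 in restricted animals and 14.89, 16.09, 16.25 and 15.73 in growth animals. It differed by -2.76 ± 0.32 (limma adjusted p = 0.0133), a gap several times the SD within either group. The remaining called members were CSRNP1 (-2.21), the orphan nuclear receptor NR4A3 (-2.00), the growth regulator MYC (-1.91), the kinase PLK3 (-1.20), the survival factor MCL1 (-1.15) and the repressor HES1 (-1.14). MYC, PLK3, MCL1 and HES1 thus moved by far less than ATF3, EGR1 and FOS. The AP-1 partners JUN (-1.35 ± 0.35) and JUNB (-1.52 ± 0.59) and the antiproliferative BTG2 (-2.13 ± 0.67) did not pass the test. FOSB and NR4A2, relatives of FOS and NR4A3, both differed by -0.04, and IER3 was the single member above 0 (0.11).

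The mean log2 signal over the 38 immediate early genes was 10.56 to 11.06 in the restricted animals and 11.49 to 12.37 in the growth animals. RG166 gave the lowest growth value for 24 of the 38 genes, whereas RL24 gave the highest restricted value for 14. With no array term, 4 of the 38 passed. Leaving out 1 array kept 33 to 36 of the 38 differences negative, while 0 to 2 were called.

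**Figure D1:**
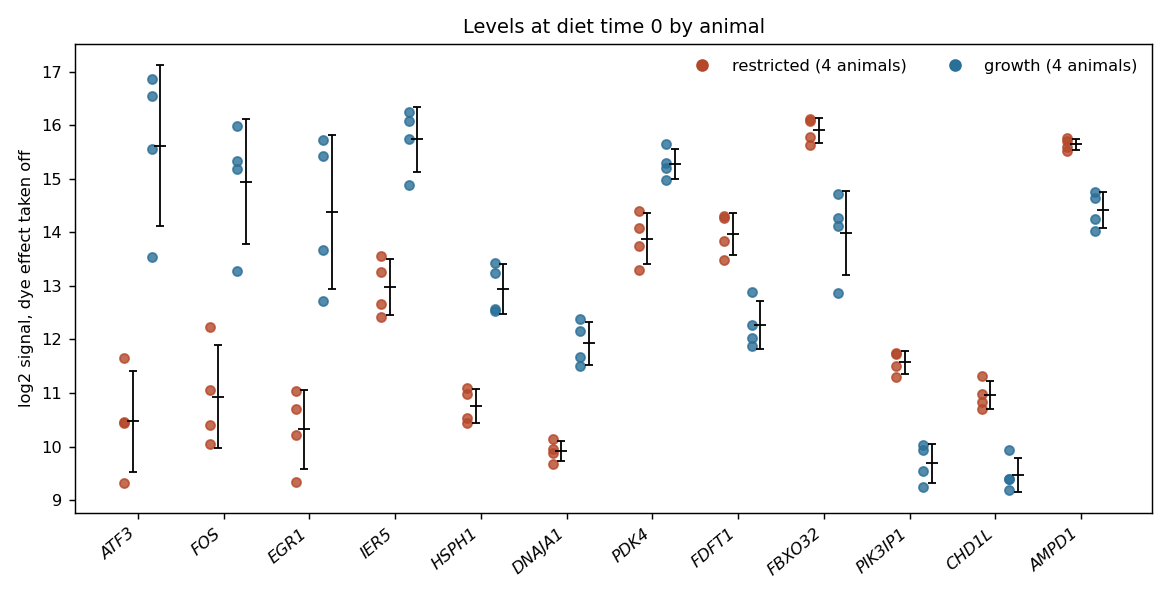
Log2 signal with the dye effect taken off (vertical axis) at diet time 0 for 12 genes (horizontal axis), 1 point an animal, with the mean and SD of each group of 4 in black. Restricted animals sit below growth animals from ATF3 to PDK4 and above them from FDFT1 to AMPD1. The 12 genes were picked from the 290 called genes, all without overlap, so their lack of overlap follows from the choice. Of all genes tested, 13.6% did not overlap.

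The stress list overlapped the immediate early list through ATF3 and GADD45B. Of 23 tested members of the stress and integrated stress response list, 2 fell and 0 rose, with a median of -0.30. These were ATF3 and GADD45G, a growth arrest and DNA damage gene at 14.19, 13.26, 13.91 and 14.61 in restricted and 15.81, 15.15, 15.23 and 16.20 in growth animals. GADD45G differed by -1.60 ± 0.30 (limma adjusted p = 0.0437). Its call was lost with no array term (limma adjusted p = 0.0732), no dye term (0.0557) and no filter on dim probes (0.0605). PPP1R15A, the phosphatase subunit that ends the integrated stress response, differed by -1.96 ± 0.47 and DDIT3, which encodes CHOP, by -0.99 ± 0.26, neither past the threshold. The response's central factor ATF4 (0.33 ± 0.20) and its amino acid target ASNS (0.29 ± 0.45) lay above 0 and were not called.

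Among 26 tested heat shock proteins and chaperones, 7 fell, 0 rose and 19 were not called, with a median of -0.77 and 24 negative differences. HSPH1, which exchanges nucleotide on HSP70, was 11.09, 10.44, 10.97 and 10.54 in restricted animals against 12.56, 13.24, 12.54 and 13.43 in growth animals. Its difference was -2.18 ± 0.25 (limma adjusted p = 0.0133). DNAJA1, a J-domain partner of HSP70, was 9.68, 10.13, 9.88 and 9.95 against 11.51, 12.38, 11.67 and 12.16, a difference of -2.02 ± 0.19 (limma adjusted p = 0.00852). Both genes were tight in the restricted group, and the lowest growth animal stood more than 1 log2 unit above the highest restricted animal.

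The other called chaperones were the J-domain proteins DNAJB4 (-1.67) and DNAJA4 (-1.34), the small heat shock protein CRYAB (-1.54), the constitutive HSP70 member HSPA8 (-1.45) and the co-chaperone BAG3 (-1.32). The inducible HSP70 gene HSPA1A differed by -1.69 ± 0.38 and was not called. A second probe, whose description names HSPA1A but which was kept apart, differed by -2.35 and passed. HSP70 genes are near copies of one another, so these probes may share signal. Not every chaperone moved by much: HSPB6 (0.16), HSPB2 (0.02) and the mitochondrial HSPA9 (-0.15) lay near 0. Of 15 unfolded protein response genes, 2 fell and 0 rose (median -0.28): CRELD2 (-1.16) and HSPA5 (-0.95), the chief chaperone of the endoplasmic reticulum. The response's transcription factors XBP1 (-0.46) and ATF6 (-0.26) were not called. With no array term 4 of the chaperones and 0 of the unfolded protein response genes passed.

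**Figure D2:**
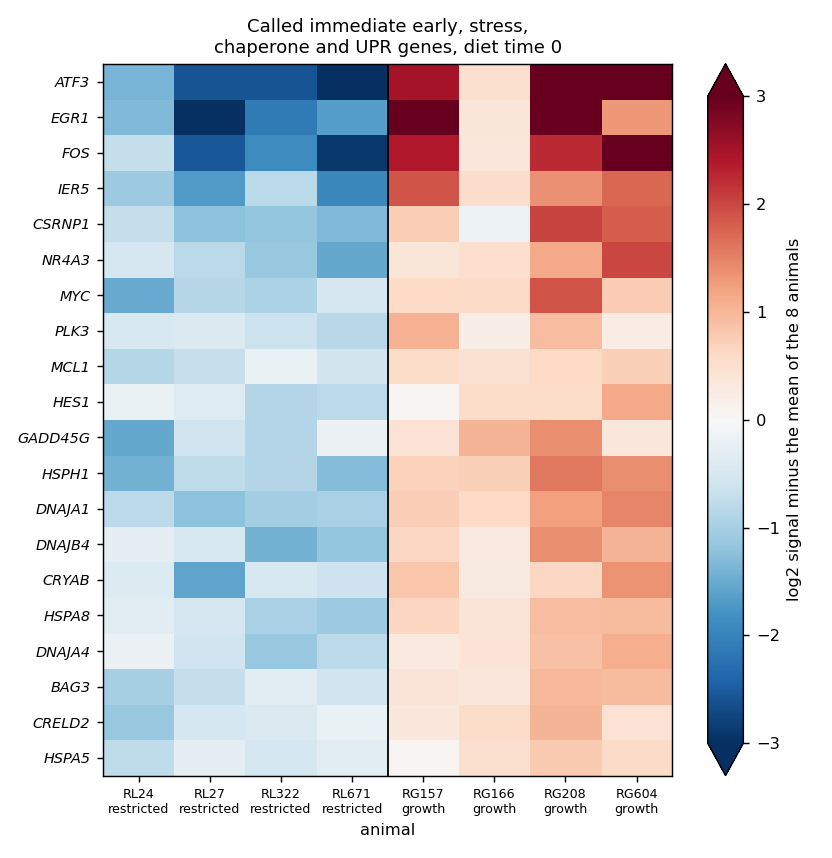
Log2 signal minus the mean of the 8 animals (colour, values past 3 shown in the end colours) for the 20 called members of the immediate early, stress, chaperone and unfolded protein response lists (rows) in each animal at diet time 0 (columns). Every row is lower in the 4 restricted animals at left than in the 4 growth animals at right. No called gene overlapped between the groups, so this follows from the choice of rows. RG166 is paler than the other growth animals for ATF3, EGR1 and FOS.

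Other genes outside these lists were among the 12 largest falls. OTUD1, a deubiquitinase, was 10.15, 10.71, 10.35 and 10.05 in restricted and 13.56, 15.24, 14.08 and 14.90 in growth animals, a difference of -4.13 ± 0.34 (limma adjusted p = 0.00753). PTX3, a secreted pattern recognition protein, was 8.05, 6.80, 7.76 and 7.55 against 10.65, 11.42, 10.79 and 12.60 and differed by -3.82 ± 0.44 (limma adjusted p = 0.0133). Both gaps were wider than the whole spread of either group. TNFRSF12A, the receptor for the cytokine TWEAK, differed by -2.90, ABRA, an actin-binding protein of striated muscle, by -2.66, RRAD, a small GTPase, by -2.47 and NUDT4, a phosphohydrolase, by -2.16.

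Genes of muscle known to respond to mechanical strain gave 0 calls among 11, although all 11 differences were negative with a median of -0.96. The actin-binding XIRP1, well above background in 3 of 4 restricted channels, differed by -2.14 ± 0.47 (limma adjusted p = 0.0636) and the titin-associated ANKRD2 by -1.76 ± 0.54 (adjusted p = 0.132). Of 15 genes known to be induced by glucocorticoids, 2 fell and 0 rose, with 14 negative differences and a median of -0.52. They were ERRFI1, an inhibitor of the EGF receptor (-1.83), and PDK4, and 0 passed with no array term. FKBP5 (-1.26 ± 0.43), a widely used readout of the hormone, was not called, nor was PER1 (-0.01 ± 0.16).

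**Figure D3:**
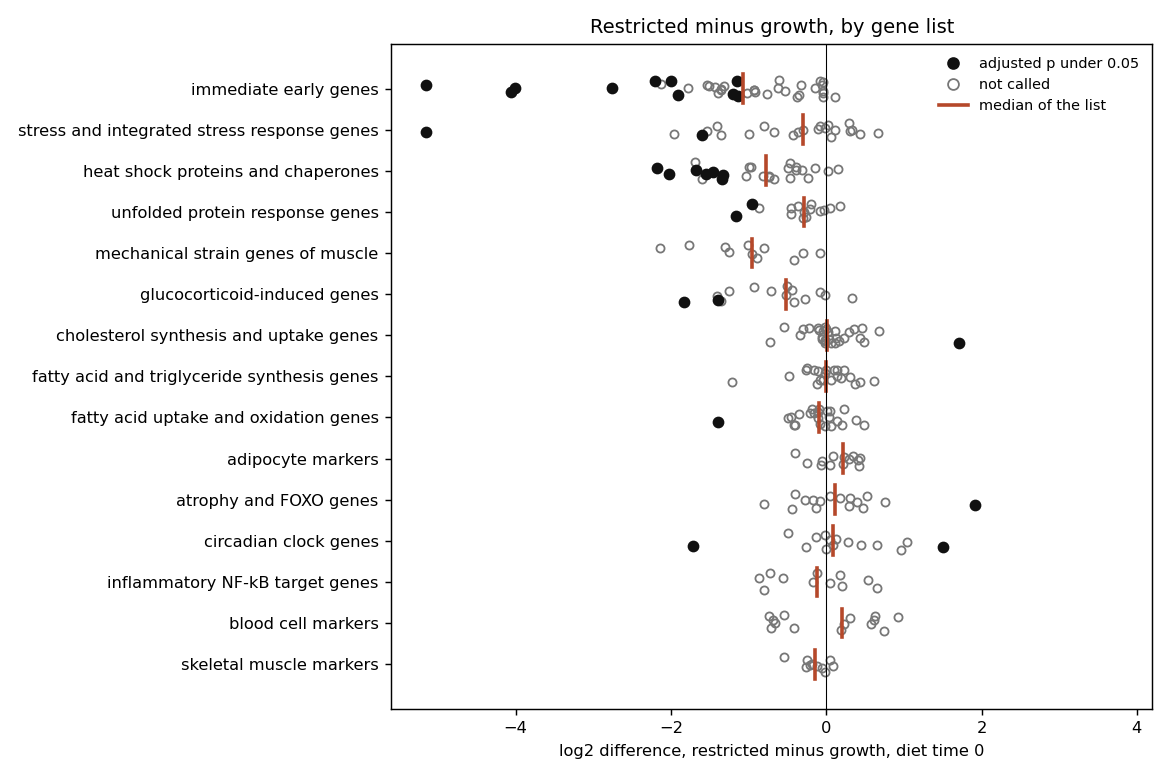
Log2 difference, restricted minus growth at diet time 0 (horizontal axis), for each tested member of 15 gene lists (rows). Filled points passed an adjusted p of 0.05 and the red bar is the list's median, which lies farthest below 0 for the immediate early (-1.08), mechanical strain (-0.96) and chaperone (-0.77) lists and near 0 for the lipid lists.

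In the lipid lists single genes moved and the lists did not. FDFT1 was 13.83, 14.26, 14.31 and 13.49 in restricted animals RL27, RL24, RL322 and RL671, and 11.88, 12.27, 12.89 and 12.03 in growth animals RG166, RG604, RG157 and RG208. All 4 restricted animals lay above all 4 growth animals. It rose by 1.71 ± 0.24 (limma adjusted p = 0.0249), a signal 3.26 times higher in the restricted group. It was the 1 called member of 30 cholesterol synthesis and uptake genes, whose median was 0.01. The neighbouring steps of the pathway did not follow it: FDPS, which makes its substrate, differed by 0.02 ± 0.11, and SQLE, which uses its product, by 0.44 ± 0.31. The sterol-regulated HMGCS1 (0.06 ± 0.13) was not called either. DHCR7, which makes cholesterol from its last precursor, was at 0.68 ± 0.15 and missed the threshold (adjusted p = 0.0671).

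Of 21 fatty acid and triglyceride synthesis genes 0 were called (median -0.01). The fatty acid synthase FASN differed by 0.30 ± 0.14, the desaturase SCD by 0.06 ± 0.15 and the phosphatidate phosphatase LPIN1 by -1.21 ± 0.30. Of 23 fatty acid uptake and oxidation genes, 1 fell and 0 rose, with a median of -0.10. It was PDK4, which restrains the entry of glucose carbon into mitochondria, at 13.75, 13.30, 14.40 and 14.08 in restricted and 15.64, 15.30, 15.20 and 14.98 in growth animals. PDK4 differed by -1.40 ± 0.24 (limma adjusted p = 0.0368, and 0.0551 with no array term), the groups being less than 1 log2 unit apart at their nearest animals. The carnitine palmitoyltransferase CPT1B (-0.35 ± 0.14) and the fatty acid carrier CD36 (0.22 ± 0.14) were not called. None of 13 adipocyte markers was called. Their median was 0.21, and the mean log2 signal over them was 9.35 to 10.06 in restricted and 9.01 to 10.13 in growth animals.

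FBXO32, the muscle ubiquitin ligase atrogin-1, had the largest rise among named genes, at 15.63, 16.09, 16.12 and 15.78 in restricted and 14.71, 14.26, 14.12 and 12.88 in growth animals. It rose by 1.91 ± 0.34 (limma adjusted p = 0.0389), a call that was lost with no array term and with no filter on dim probes (adjusted p = 0.0605 in each). The restricted animals were close together, and RG208 was the lowest growth animal. FBXO32 was the 1 called member of 16 atrophy and FOXO genes (median 0.12). TRIM63, which encodes the companion ligase MuRF1, differed by -0.80 ± 0.31 and was not called, and myostatin, MSTN, differed by 0.47 ± 0.34.

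PIK3IP1, an inhibitor of phosphoinositide 3-kinase, was 11.51, 11.29, 11.74 and 11.74 in restricted against 9.55, 9.25, 10.03 and 9.94 in growth animals. It rose by 1.88 ± 0.18 (limma adjusted p = 0.00852), and its ratio, with the dye effect left in, was 1.64 to 2.03 on the 4 arrays. Other named rises were the linker histone H1-2 (1.65), the chromatin remodeller CHD1L (1.49), the pantetheinase VNN1 (1.26), the muscle AMP deaminase AMPD1 (1.23), FGD2 (1.22), the mTORC1 inhibitor DDIT4L (1.19), ZNF613 (1.16) and the death receptor TNFRSF21 (1.16). AMPD1 was tight in the restricted group, from 15.53 to 15.76, and ranged from 14.02 to 14.75 in the growth group.

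The 15 tested circadian clock genes had a median of 0.09. Among them NFIL3, a repressor in the clock's output, was 7.96, 7.29, 7.35 and 7.88 in restricted and 9.82, 9.48, 8.59 and 9.45 in growth animals and differed by -1.71 ± 0.26 (limma adjusted p = 0.0289). The core clock genes ARNTL (0.09 ± 0.29), CLOCK (0.27 ± 0.38), PER1 (-0.01 ± 0.16) and PER2 (-0.50 ± 0.25) were not called. The hour of biopsy is not given in the sources used here and its part was not tested.

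The tissue matched its label, since the 10 skeletal muscle markers included ACTA1, whose signal was 16.34 to 17.27 in the 8 animals. None of the 10 was called, with 8 differences below 0 and 2 above (median -0.15). ACTA1 differed by -0.54 ± 0.16 and CKM by 0.05 ± 0.15. Slow and fast fibre genes gave 0 calls of 9 and 0 of 10, glycolytic enzymes 0 of 14 and respiratory chain subunits 0 of 24. Differences were negative for 5 of the 9 slow and 8 of the 10 fast fibre genes. They were negative for 11 of the 14 glycolytic enzymes and 17 of the 24 respiratory chain subunits. Inflammatory NF-kB target genes gave 0 of 11 and interferon-stimulated genes 0 of 9. In biopsies, fewer cells of a type and less RNA per cell cannot be told apart. Of 14 blood cell markers 0 were called, with 8 differences above 0 and 6 below, and their mean log2 signal was 8.57 to 9.47 in restricted and 8.62 to 9.25 in growth animals. The microglia and macrophage marker AIF1 (0.92 ± 0.20) and the leukocyte marker PTPRC (0.74 ± 0.19) lay above 0, and haemoglobin HBB (-0.68 ± 0.33) and the neutrophil gene S100A9 (-0.72 ± 0.46) below.

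Endothelial markers (0 of 9 called), fibroblast markers (0 of 9) and smooth muscle markers (0 of 6) were not called. The mean over the 9 endothelial markers was 10.21 to 10.41 in restricted and 10.43 to 10.53 in growth animals, a gap of little size without overlap. Of 5 Schwann cell markers all 5 differences were negative and 1 fell, PMP22 (-1.50 ± 0.27), a myelin gene whose call was lost with no array term (adjusted p = 0.0621). The mean over these 5 was 9.43 to 9.80 in restricted and 9.89 to 10.16 in growth animals, again without overlap. The means of the immediate early, stress, chaperone, unfolded protein response, mechanical strain and glucocorticoid-induced lists did not overlap either. Those of all other lists overlapped. Of the 6 smooth muscle markers 5 differences were negative, and their mean was 10.77 to 10.96 in restricted and 10.83 to 11.26 in growth animals, with overlap. Whether cell makeup had a part in the called differences was not tested.

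The same animals allowed the difference to be followed. At time 1, 3 restricted and 4 growth animals of time 0 were measured again, on another slide, and the change of each animal was compared between the groups. Each animal had the other dye at time 1. The changes given for animals and their averages keep the dye effect, whereas the fit takes it into account. Since this change contains the time 0 value, it is not a separate line of evidence for the difference at time 0. In limma 652 of the 13460 genes passed (4.84%), and 15 of the 67 genes reported under the naming rule did, many of them picked for their time 0 difference. FOS changed by -2.44, -3.84, -6.29 and -5.48 in growth animals RG166, RG604, RG157 and RG208, and by -0.94, 2.48 and -0.70 in restricted animals RL27, RL24 and RL671. The growth animals all fell more than any restricted animal did, and the changes differed by 5.13 ± 0.91 (limma adjusted p = 0.0314).

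IER5 changed by -2.36, -1.99, -3.14 and -2.73 in the same growth animals and by 0.82, 1.89 and 0.82 in the restricted ones, a difference of 3.80 ± 0.34 (limma adjusted p = 0.00836). RRAD changed by -2.41, -1.65, -1.43 and -2.25 against 2.09, 1.65 and 2.59, which differed by 3.92 ± 0.18 (limma adjusted p = 0.000988). With the dye effect left in, growth animals came down and restricted animals went up in both genes. ATF3 (4.47 ± 0.96, adjusted p = 0.0494) and PIK3IP1 (-2.06 ± 0.37, adjusted p = 0.0331) also passed. FDFT1 changed by 0.88 on average in growth and -0.07 in restricted animals, a difference of -0.99 ± 0.37 that did not pass (limma adjusted p = 0.149). FBXO32 (-1.40 ± 0.58), EGR1 (2.37 ± 1.08) and HSPH1 (1.37 ± 0.35) did not pass either. The count rested on each animal: 173, 61 and 211 genes passed without RL27, RL24 and RL671, and 21, 124, 7 and 44 without RG166, RG604, RG157 and RG208.

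The arrays of the later times gave ratios of restricted over growth that are set beside time 0 without a test, because animals recur on them. At time 1 RL24 was on arrays 2 and 3, and RL322 was absent. At time 2 only RL27 and RL24 were set against RG166 and RG208. The study's methods speak of nutritional deprivation and re-alimentation without saying which time label belongs to which. For FOS the log2 ratios were -1.34, -5.28, -5.81 and -3.61 at time 0, 0.17, 0.97, 4.21 and 1.17 at time 1, and 0.21, 0.04, -1.12 and -0.68 at time 2. For FDFT1 they were 1.63, 2.31, 1.75 and 1.13 at time 0, 0.56, 0.37, 0.67 and 0.67 at time 1, and -0.17, 0.90, 0.10 and -0.78 at time 2. On these ratios FOS was below 0 on all 4 arrays at time 0 and above it on all 4 at time 1. FDFT1 stayed above 0 at time 1 on every array and fell on both sides of it at time 2. The gene's own dye effect was not taken off, so the sign on a single array can carry it. Restricted RNA was in Cy3 for the FOS ratios of 0.97 and 4.21 at time 1. FOS read higher in Cy3 at time 0, so the sign of 0.97 may rest on dye. The immediate early genes did not share the course of FOS. Of the 10 called members, 3, FOS among them, were above 0 on all 4 arrays of time 1 with the dye effect left in. EGR1 and PLK3 were below it on all 4. EGR1 gave -2.81, -2.41, -0.30 and -0.35 at time 1 and -0.50, -0.77, -2.60 and -2.08 at time 2. Of the 7 called chaperones, 4 were below 0 on all 4 arrays of time 1, among them HSPH1, DNAJA1 and HSPA8. At time 2, 0 of the 7 were below 0 on all 4 arrays.

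**Figure D4:**
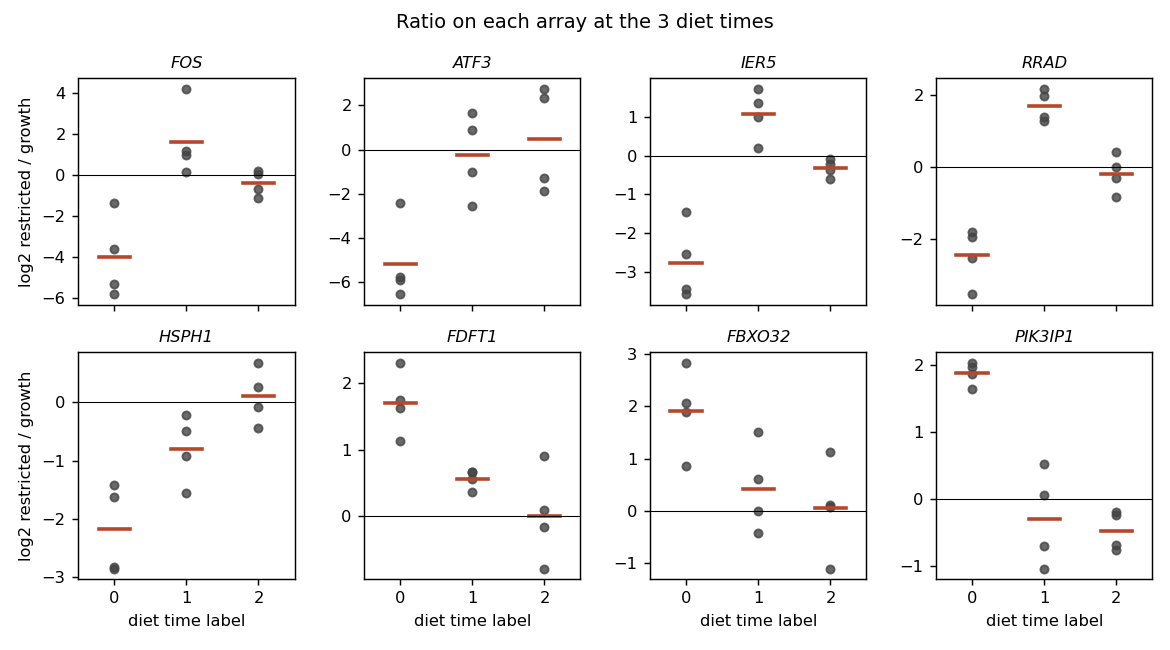
Log2 ratio of restricted over growth on each array (vertical axis, points) at the diet times labelled 0, 1 and 2 (horizontal axis) for 8 genes, with the mean of 4 arrays in red. The dye effect was left in the points. The points stand away from 0 at time 0 for each gene; at time 2 the means for FDFT1 (0.01) and FBXO32 (0.06) are at 0.

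The levels were also set beside the other muscle samples. The post-natal cross arrays held Piedmontese × Hereford and Wagyu × Hereford cattle from 3 to 30 months of age. Dye effects were taken off the time 0 values and not off the other channels. Of the 38 immediate early genes, the growth mean lay above the median of the post-natal cross arrays for 33 and the restricted mean for 16, and of the 26 chaperones for 21 and 4. FOS in the growth animals, from 13.27 to 15.98, lay above the median of the post-natal cross arrays (11.66, range 9.13 to 15.24) and of the channels of diet times 1 and 2 (10.09, range 8.94 to 14.02), whereas the restricted animals, from 10.04 to 12.23, lay around those medians. For EGR1 the growth animals, from 12.71 to 15.72, also lay above the medians of 11.42 and 10.37. The restricted animals all lay below the post-natal median for EGR1 and on both sides of the later diet median. For FDFT1 the growth animals, from 11.88 to 12.89, were low against medians of 13.44 and 13.43, and the restricted animals, from 13.49 to 14.31, were somewhat above them. FBXO32 lay between: restricted animals were above and growth animals below the medians of 14.98 and 15.19. PIK3IP1 was high in the restricted group, at 11.29 to 11.74 against medians of 10.15 and 10.20. Breed, age and slide differ between these sets, so the levels are a description.

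**Figure D5:**
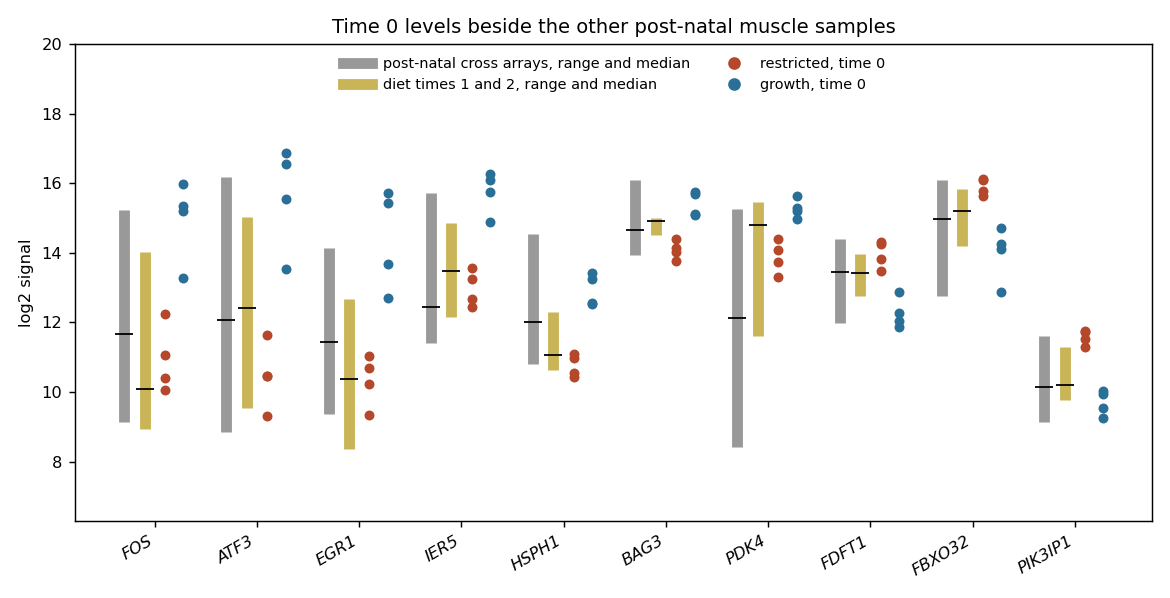
Log2 signal (vertical axis) of 10 genes (horizontal axis) in the 4 restricted and 4 growth animals at time 0 (points), beside the range (bars) and median (black marks) of the post-natal cross arrays and of diet times 1 and 2. The dye effect was taken off the points and not off the bars. Some growth animals pass the top of both bars for FOS, EGR1 and IER5, and all 4 lie near the bottom for FDFT1.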

How the data were processed

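RNA of 48 2-colour Agilent arrays (35 animals) was processed together, and the 4 arrays of diet time 0 were tested. The authors deposited, per the file headers, spot by spot, a mean and a local background intensity for either dye together with a log10 ratio (red over green), from Agilent Feature Extraction 9.5.1 by the submitters' processing notes. The genome build is not given in the sources used here. The number of arrays limits the precision.

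Background was corrected by normexp (offset 50), followed by loess within and Aquantile between arrays in limma 3.58.1 (R 4.3.3). Control and outlier spots were left out. Outlier spots numbered 10 to 32 on each time 0 array and 2 to 797 on each array of the series. At most 7 spots of a time 0 array were saturated. Spots were averaged to 21475 probes and probes to genes (462 genes had several). Of the probes, 13839 were matched to RefSeq (ARS-UCD2.0) symbols and 2026 named by their description. Where both were given, 97.0% of names were the same. Probes were kept if at least 4 of the 8 time 0 channels exceeded background by the scanner's flag, giving 13961 probes and 13460 genes.

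The fit (lmscFit, eBayes, two-sided, Benjamini-Hochberg over all genes, 0.05) had diet and dye as fixed terms and array as random through the correlation of its 2 channels, estimated at 0.124. That estimate was the mean log variance ratio with a small-sample correction. It replaced limma's own consensus value, 0.378, after counts had been seen, because the latter came out too high on simulated data; the fits were checked on simulated data. The change to time 1 was fitted with limma on 1 value per animal, with diet and the direction of its dye change. Values after ± are SE. Replicates are different animals.

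Animals were paired only by sharing an array, and oriented array profiles correlated from -0.0919 to 0.411 across genes. The dye effect was left in these profiles. Arrays with the same dye for the restricted animal correlated at 0.332 (arrays 1 and 4) and 0.411 (arrays 2 and 3). Named genes were FOS, ATF3 and FDFT1, the 12 largest rises and falls that passed without overlap, and of each list the called members, at most 8, or else the 2 with the largest difference; some genes that this selects are not reported here, and other list members are named to account for the lists. The comparison, its genes and the lists were chosen with earlier results of these data known. Alternatives were other background corrections, normalizations, filters, probe choices and models, the deposited ratios, and leaving out arrays or animals.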

Additional observations from a re-analysis of the deposited data

Results flagged for a closer look

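In 4 of 134 groups of 4 animals (each named gene in each group), 1 animal stood far from the other 3, past Dixon's 95% critical value for its gap as a share of the group's range; chance flags about 1 in 20 such groups. RG208 was the high growth animal for MYC (0.847 of the range), RL27 the low restricted animal for CRYAB (0.83) and the high one for FADS1 (0.864), and RL24 the low restricted animal for SELP (0.944).

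For 15 of the 67 named genes the change from time 0 to time 1 differed between the groups in limma, against 652 of all 13460 genes (4.84%). Many named genes were picked for a large time 0 difference, which this change contains. A higher share and a shift back towards 0 are therefore expected from the selection. On the log2 scale, restricted minus growth, the changes differed by 5.13 for FOS, 4.47 for ATF3, 3.92 for RRAD, 3.80 for IER5, 3.56 for TNFRSF12A, 3.28 for PTX3, 2.26 for NUDT4, 2.10 for NR4A3 and 1.40 for BAG3, all of which had been lower in the restricted group at time 0. PIK3IP1, higher at time 0, differed by -2.06. The chaperone DNAJA4, lower at time 0, changed by -2.36 on average in restricted and -0.89 in growth animals, and with the dye term these changes differed by -1.36. The muscle genes ACTA1 (-5.39), PGK1 (-2.75), ENO3 (-1.69) and MYBPC2 (-1.38), none of them called at time 0, fell in restricted relative to growth animals. ACTA1, skeletal muscle actin, changed by -4.88 on average in the 3 restricted animals and by 0.70 in the 4 growth animals, with the dye effect left in.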

How the results depend on the processing

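Under other background corrections, quantile normalization, normalization of the time 0 arrays alone, other filters and the brightest probe, 249 to 379 genes were called. Centring channels on the median gave 136 calls (66.2% of them lower, against 52.8%), no dye term 146 and no array term 95, and limma's own consensus correlation, the estimate first planned, gave 897; the 290 calls rest on the correlation of 0.124 that replaced it after the counts had been seen. With array as a replicate block 0 genes were called, from normalized values and from the deposited log10 ratios alike, and so were 0 immediate early, chaperone or cholesterol genes; 2154 and 2171 genes had an unadjusted p under 0.05. Immediate early genes called lower numbered 4 with no array term, 3 with no dye term, 6 with no filter and 19 with limma's own correlation, and chaperones 4 with no array term and 15 with that correlation, under which 3 cholesterol genes were called higher. Without 1 array the calls were 0 to 37, the immediate early calls 0 to 2, the chaperone calls 0 to 3 and the cholesterol calls 0 to 1; the fit then has fewer animals. No called gene that belongs to a list or was named by the rule changed direction under any alternative. Of these 42 genes, 21 lost their call with no array term, 17 with no dye term and 15 with no filter on dim probes. Of genes that were not called, 4 crossed 0: leaving out 1 array gave -0.727 to 0.0684 for MYH4, -0.69 to 0.18 for RYR1, -1.36 to 0.31 for USP18 and -1.89 to 0.0848 for COL1A2. For the change to time 1, other settings gave 463 to 883 calls and leaving out 1 animal 7 to 211. Over all spots, the signal was 2.40 to 2.44 times background in the Cy3 channels of time 0 and 3.78 to 4.42 times in the Cy5 channels, and values near background are the least certain.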

Other observations

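A few called genes outside the lists that are known from immune or stromal cells are given here, singled out after their values were seen and with no list or test behind them. None of the 14 blood cell, 9 interferon-stimulated, 9 fibroblast or 9 endothelial genes of the lists was called by limma. HAVCR2, an inhibitory receptor of T cells and myeloid cells, was 8.75, 8.63, 8.71 and 8.36 in restricted animals RL27, RL24, RL322 and RL671 and 7.58, 7.84, 7.61 and 7.65 in growth animals RG166, RG604, RG157 and RG208, a difference of 0.95 ± 0.12 (limma adjusted p = 0.0185). IRF8, a transcription factor of myeloid and dendritic cells, was higher by 1.04, B2M, the light chain of MHC class I, by 0.94 and RNASE6 by 0.92. The chemokine CXCL12 was higher by 0.98 and CD34, of endothelial and progenitor cells, by 0.91. These picks were all higher in the restricted group, whereas the called PTX3 (-3.82) and PLAUR, given below, were lower. Of the 9 endothelial markers, 7 differences were negative and 2 positive.

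Other called genes, also singled out after their values were seen, were the linker histones H1-2 (1.65, lost with no array term, adjusted p = 0.0700) and H1-3 (0.89). CIRBP, an RNA-binding protein known to be induced by mild cold, was higher by 0.85. Among genes lower in the restricted group, AMD1 (-1.26) and ODC1 (-1.04) encode the regulated enzymes of polyamine synthesis, PLAUR (-0.90) is the receptor of the urokinase plasminogen activator, and SLC38A2 (-0.99) and SLC7A2 (-1.14) carry amino acids.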
